A study of Glycine max with 30 samples.

Results

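Phenylalanine ammonia-lyase (PAL) removes ammonia from phenylalanine to give trans-cinnamate, the first step of the phenylpropanoid pathway. That pathway feeds lignin, flavonols, anthocyanins and, in legumes such as soybean, the isoflavonoids and the phytoalexins made from them, and PAL transcripts are widely used as a readout of wounding, light and pathogen responses in leaves. The active enzyme is a tetramer of PAL subunits, and plants carry several PAL genes whose products catalyse the same reaction. The soybean PAL family was taken here as 8 gene identifiers of the 55589 in the count tables: Glyma.19G182300, Glyma.03G181600, Glyma.03G181700, Glyma.10G058200, Glyma.02G309300, Glyma.13G145000, Glyma.20G180800 and Glyma.10G209800. The identifiers came from a fixed member list, since the count tables pair no identifier with a name.

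All 8 identifiers were present in every table. Their chromosome numbers, read from the identifiers, were 19, 3, 3, 10, 2, 13, 20 and 10. The RefSeq gene table for Glycine_max_v4.0 lists 8 genes with a PAL symbol, with the same number on each of these chromosomes, but its symbols could not be paired with the identifiers. Glyma.03G181600 and Glyma.03G181700 are neighbours, at ranks 1816 and 1817 of the 2649 identifiers of chromosome 3. How reads shared between similar copies were assigned is not given in the sources used here, so a read from one of these neighbours may have been counted for the other, and the same holds for any near-identical pair in the family. No separate role is given here for single members.

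Messenger RNA of mature soybean leaves was sequenced from plants that carried an RNAi construct against a subunit of RNA polymerase IV or V and from controls of the same families without it. Both polymerases are found in plants and serve RNA-directed DNA methylation, which places methyl groups on DNA at sites matched by small RNAs. The comparisons ask how leaf transcripts differ between plants with and without each construct. The NRPD1-RNAi family, against the largest subunit of polymerase IV, was in cultivar Jack, with 3 transgenic (T) and 3 non-transgenic (NT) plants. The NRP(D/E)2-RNAi family, against the second subunit that both polymerases share, was in cultivar Mustang, with 6 T and 6 NT plants. The NRPE1-RNAi family, against the largest subunit of polymerase V, was also in Mustang, with 6 T and 6 NT plants. The labels do not give the promoter of the constructs or the number of transformation events, so a family may stand for 1 event, and differences between NRPD1-RNAi and the other families cannot be told apart from the cultivar. The targeted subunit genes, leaf markers and the later genes of the phenylpropanoid pathway needed gene names and were not analysed here. The p-values measure the spread between the sampled plants, and in whole leaf tissue fewer cells expressing a gene and less RNA per cell cannot be told apart.

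The 30 libraries held 10049997 to 21763621 counts. Levels are given as CPM (counts per 1000000) after TMM scaling (trimmed mean of M values) over all libraries. Errors are standard deviations over plants. CPM also depends on transcript length, which was not used, so levels of different genes are compared only as shares of reads.

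PAL reads made up between 0.00499% and 0.0679% of the counts of a library, and most of them came from a pair of genes. Glyma.10G058200 took 39.1% of all PAL counts over the 30 libraries and Glyma.13G145000 took 32.1%. Glyma.19G182300 followed with 13.3%, and Glyma.03G181600, Glyma.02G309300, Glyma.20G180800 and Glyma.03G181700 each took between 3.60% and 3.95%. Glyma.10G209800 was the rarest, with 571 counts in all and 0.602% of the PAL total.

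The summed level of the 8 genes was 255 ± 17.7 CPM in NRPD1-RNAi NT leaves and 271 ± 63.8 CPM in NRPD1-RNAi T leaves (SD, n = 3). It was 93.4 ± 35.0 CPM in NRP(D/E)2-RNAi NT leaves and 149 ± 92.6 CPM in NRP(D/E)2-RNAi T leaves (SD, n = 6). It was 274 ± 178 CPM in NRPE1-RNAi NT leaves and 241 ± 194 CPM in NRPE1-RNAi T leaves (SD, n = 6). In each family the T and NT ranges of the sum overlapped. The lowest library, NRP(D/E)2-RNAi NT replicate 3, reached 47.0 CPM, and the highest, NRPE1-RNAi T replicate 6 and NRPE1-RNAi NT replicate 4, reached 628 and 597 CPM.

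**Figure D1:**
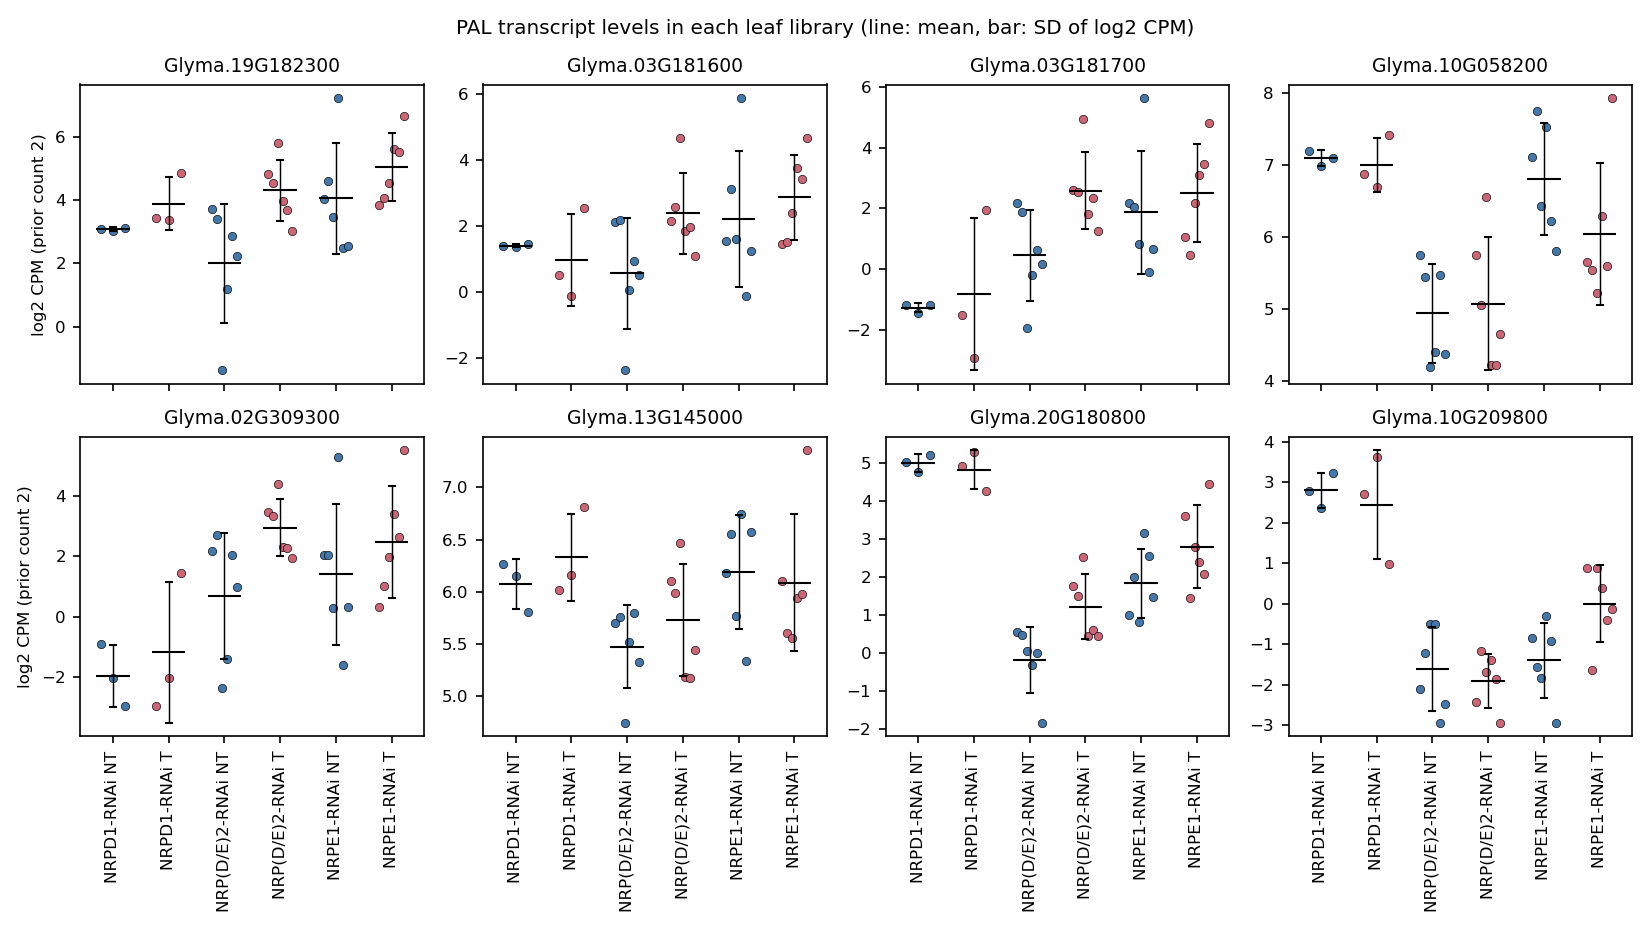
Level of each PAL gene in each of the 30 leaf libraries, as log2 CPM with a prior count of 2 (vertical axis, scale differs between panels) by group (horizontal axis). Blue points are NT and red points T libraries, the horizontal line is the group mean and the bar its SD; Glyma.20G180800 and Glyma.10G209800 lay highest in both NRPD1-RNAi groups, and single libraries stood far above the rest of the NRPE1-RNAi groups for several genes.

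The abundant gene Glyma.10G058200 had its highest group means in NRPD1-RNAi NT leaves, at 137 ± 10.4 CPM, and NRPD1-RNAi T leaves, at 131 ± 35.6 CPM (SD, n = 3). NRPE1-RNAi NT leaves followed at 126 ± 64.6 CPM and NRPE1-RNAi T leaves at 84.4 ± 79.7 CPM (SD, n = 6). NRP(D/E)2-RNAi T leaves, at 40.7 ± 29.6 CPM, and NRP(D/E)2-RNAi NT leaves, at 33.6 ± 15.3 CPM, were lowest (SD, n = 6). No neighbouring pair in this order was separated by more than the larger of its SDs. The means of Glyma.13G145000 lay closer together, from 45.7 ± 10.9 CPM in NRP(D/E)2-RNAi NT leaves (SD, n = 6) to 82.7 ± 25.5 CPM in NRPD1-RNAi T leaves (SD, n = 3). This gene was found in every library, between 26.8 and 164 CPM.

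Glyma.20G180800 and Glyma.10G209800 ordered the groups otherwise. Glyma.20G180800 stood at 31.9 ± 4.97 CPM in NRPD1-RNAi NT and 29.1 ± 9.78 CPM in NRPD1-RNAi T leaves (SD, n = 3), then at 8.71 ± 7.16 CPM in NRPE1-RNAi T, 4.06 ± 2.72 CPM in NRPE1-RNAi NT, 2.56 ± 1.70 CPM in NRP(D/E)2-RNAi T and 0.860 ± 0.429 CPM in NRP(D/E)2-RNAi NT leaves (SD, n = 6). Among these neighbours, the step from the Jack groups to NRPE1-RNAi T exceeded the larger SD. Glyma.10G209800 stood at 7.02 ± 2.12 CPM in NRPD1-RNAi NT and 6.82 ± 5.21 CPM in NRPD1-RNAi T leaves (SD, n = 3). It reached 1.03 ± 0.613 CPM in NRPE1-RNAi T leaves and a mean of at most 0.311 CPM in the other Mustang groups (n = 6). The steps on both sides of NRPE1-RNAi T exceeded the larger SD for this gene. It had a count of 0 in 3 Mustang libraries, where 3 counts, taken as the limit that a count of 0 allows, correspond to between 0.153 and 0.227 CPM. That limit covers counting error only.

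The remaining genes, Glyma.19G182300, Glyma.03G181600, Glyma.03G181700 and Glyma.02G309300, had their highest mean in one of the NRPE1-RNAi groups. Glyma.19G182300 averaged 41.2 ± 32.0 CPM in NRPE1-RNAi T and 35.1 ± 55.9 CPM in NRPE1-RNAi NT leaves (SD, n = 6), and 6.24 ± 4.86 CPM in NRP(D/E)2-RNAi NT leaves (SD, n = 6), the lowest group. Glyma.03G181600 averaged between 2.12 CPM in NRP(D/E)2-RNAi NT and 12.7 CPM in NRPE1-RNAi NT leaves. Glyma.03G181700 and Glyma.02G309300 were lowest in NRPD1-RNAi NT leaves, at 0.281 ± 0.0411 and 0.174 ± 0.209 CPM (SD, n = 3). Both had libraries with no read in Jack, 1 for Glyma.03G181700 and 2 for Glyma.02G309300, where the limit was between 0.305 and 0.340 CPM. For all 4 genes, no neighbouring groups in the order of the means differed by more than the larger SD.

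In NRP(D/E)2-RNAi leaves all 7 tested PAL genes had a higher estimate with the construct than without it, and 1 of them, Glyma.20G180800, passed the test across all genes and was higher. Its level was 0.149 CPM in the lowest, 0.882 CPM in the median and 1.34 CPM in the highest NT library. In T libraries it was 1.22, 2.04 and 5.56 CPM. All 6 T libraries lay above the NT median and 4 lay above every NT library. The log2 fold change was 1.61 ± 0.50 (SE, 3.05-fold higher), with an adjusted p of 0.0440 by edgeR's quasi-likelihood test with Benjamini-Hochberg adjustment over 31773 genes. In this comparison 15.9% of the tested genes were called at an adjusted p under 0.05 and 8.6% were called higher in T, so 1 of 7 lies near the background.

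Glyma.19G182300 ran from 0.256 CPM through a median of 5.87 CPM to 12.95 CPM in NT libraries, and from 8.08 through 19.3 to 55.1 CPM in T libraries. All 6 T libraries lay above the NT median, and 4 above every NT library. Its log2 fold change was 1.97 ± 0.64 (SE, 3.91-fold), with an edgeR adjusted p of 0.0533. Glyma.03G181700 ran from 0.128 through 1.20 to 4.37 CPM in NT and from 2.25 through 5.33 to 30.6 CPM in T libraries. Its ranges overlapped, with 4 T libraries above every NT library. The log2 fold change of Glyma.03G181700 was 2.28 ± 0.76 (SE, 4.85-fold), with an edgeR adjusted p of 0.0557.

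Glyma.03G181600 ran from 0.0640 through 1.55 to 4.39 CPM in NT and from 1.99 through 4.08 to 25.4 CPM in T libraries. The groups overlapped in 4 of 6 T libraries. Its log2 fold change was 1.86 ± 0.75 (SE; edgeR adjusted p 0.0984). Glyma.02G309300 ran from 0.0640 through 2.92 to 6.29 CPM in NT and from 3.68 through 7.37 to 20.5 CPM in T libraries. Its log2 fold change was 1.72 ± 0.70 (SE; edgeR adjusted p 0.104). Neither gene passed the test.

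The abundant pair had smaller log2 fold changes between NRP(D/E)2-RNAi T and NT leaves. Glyma.10G058200 spanned 18.3 to 53.8 CPM in NT and 18.5 to 94.7 CPM in T libraries, and 3 of 6 T libraries lay above the NT median. Its log2 fold change was 0.32 ± 0.43 (SE; edgeR adjusted p 0.628). Glyma.13G145000 spanned 26.8 to 55.6 CPM in NT and 36.0 to 88.5 CPM in T libraries, and its log2 fold change was 0.34 ± 0.25 (SE; edgeR adjusted p 0.368). Glyma.10G209800 did not pass edgeR's filter on low counts in this family and stood between 0 and 0.582 CPM in all 12 libraries. Its mean was lower in T leaves, at 0.158 ± 0.117 CPM against 0.268 ± 0.261 CPM in NT leaves (SD, n = 6), and was not tested.

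The log2 fold changes of the 7 tested genes were all positive, with a median of 1.72, whereas the median over all 31773 tested genes was −0.01 and 48.7% of them were positive. At an unadjusted p under 0.05, 5 of 7 were higher in T, and 17.6% of all tested genes were. The members do not vary independently of one another (r of up to 0.96 between them within groups), and 1 library weighed on these values. Without T replicate 3, the highest T library for 7 of the 8 genes, no PAL gene was called, where 2921 genes were called in all. At an unadjusted p under 0.05, 2 of 7 genes (Glyma.19G182300 and Glyma.20G180800) were then higher, and the share over all genes was not computed for that fit. Glyma.10G058200 had a negative log2 fold change of −0.14. In that fit the log2 fold change of Glyma.03G181600 was 0.89 and that of Glyma.03G181700 was 1.26, and the value of Glyma.20G180800 was 1.21 with an edgeR adjusted p of 0.105. The call on Glyma.20G180800 was lost in 7 of the 12 fits that left out 1 library (NT replicates 2, 3, 4 and 5 and T replicates 1, 2 and 3; adjusted p 0.0518 to 0.105), while Glyma.19G182300 and Glyma.03G181700 were called in addition without NT replicate 1 or T replicate 6.

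**Figure D2:**
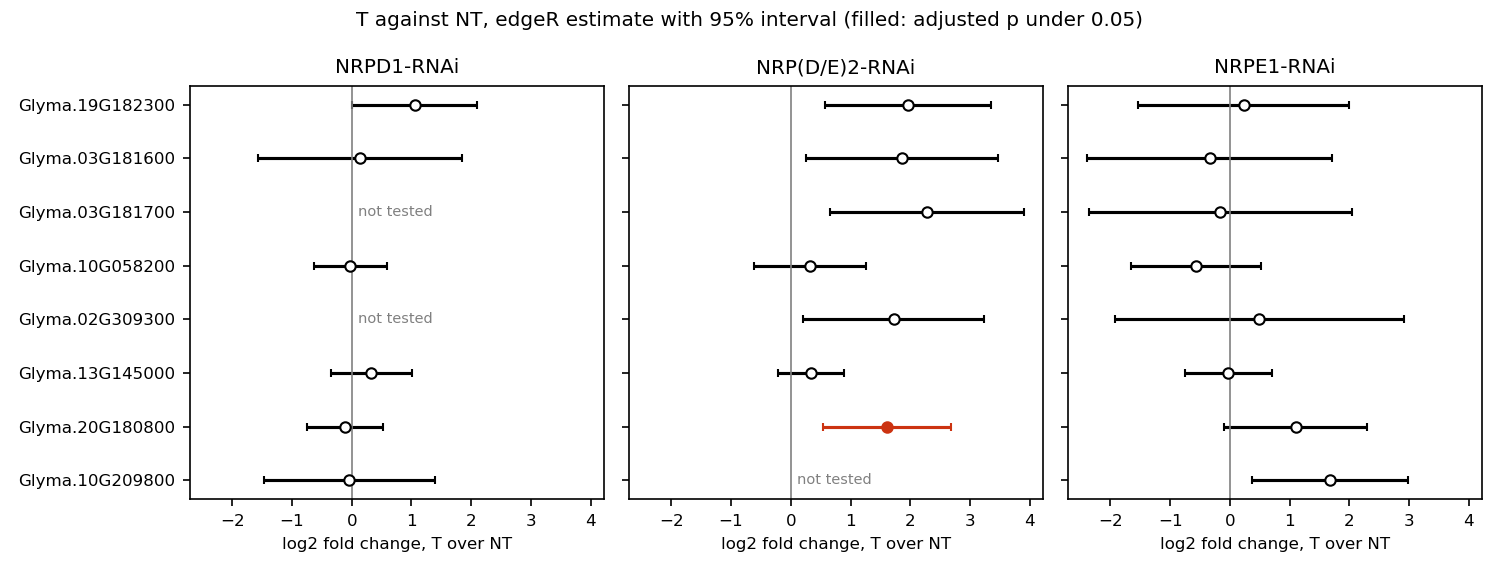
Log2 fold change of T over NT leaves (horizontal axis) for each PAL gene (vertical axis) in the 3 families, with edgeR's estimate as the point and its 95% interval as the bar. The filled point is Glyma.20G180800 in NRP(D/E)2-RNAi, at 1.61, which had an adjusted p under 0.05; genes marked as not tested did not pass the filter on low counts in that family.

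In NRPE1-RNAi leaves none of the 8 PAL genes passed the test (edgeR, 1 of 8 at an unadjusted p under 0.05; 0 of 8 by DESeq2), where 1.97% of 31440 tested genes were called and 15% had an unadjusted p under 0.05. The lowest adjusted p belonged to the rarest gene, Glyma.10G209800. Its NT libraries held 0 to 13 counts and its T libraries 2 to 28. It thus passed the filter on low counts mainly through T libraries, and its p-values are not free of that selection. It ran from 0 through 0.303 to 0.683 CPM in NT libraries and from 0.191 through 0.982 to 1.72 CPM in T libraries. In 4 of 6 T libraries it lay above every NT library, and in T replicate 2 it lay below the NT median. The log2 fold change was 1.68 ± 0.60 (SE), with an unadjusted p of 0.0159 and an adjusted p of 0.211 by edgeR's quasi-likelihood test.

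Glyma.20G180800 ran from 1.62 through 3.24 to 8.72 CPM in NRPE1-RNAi NT and from 2.58 through 5.93 to 21.7 CPM in T libraries. The groups overlapped, with 2 T libraries above every NT library, and the log2 fold change was 1.10 ± 0.55 (SE; edgeR adjusted p 0.377). Without T replicate 6 it was 0.58. Glyma.10G058200 had the opposite sign. It ran from 56.3 through 112 to 216 CPM in NT and from 37.5 through 49.6 to 245 CPM in T libraries. Of the 6 T libraries, 4 lay below every NT library, and T replicate 6 lay above them all. The log2 fold change of Glyma.10G058200 was −0.56 ± 0.50 (SE; edgeR adjusted p 0.639), and it was −1.27 ± 0.35 without T replicate 6 (adjusted p 0.119).

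The values of Glyma.19G182300, Glyma.03G181600, Glyma.03G181700 and Glyma.02G309300 in this family turned on 1 control plant and 1 transgenic plant. In NT replicate 4 they stood at 148, 58.6, 49.5 and 38.1 CPM, whereas the next highest NT library held 23.9, 8.63, 4.35 and 4.01 CPM. The highest T library, replicate 6, held 99.3, 25.5, 28.2 and 44.8 CPM. With all 12 libraries, the log2 fold changes were 0.23 ± 0.81, −0.34 ± 0.95, −0.16 ± 1.02 and 0.49 ± 1.11 (SE). Without NT replicate 4 they were 1.73 ± 0.56, 1.53 ± 0.68, 1.93 ± 0.76 and 2.46 ± 0.98 (SE), and the edgeR adjusted p-values were 0.0839, 0.187, 0.140 and 0.146. Without T replicate 6 they were −0.25 ± 0.82, −0.87 ± 0.98, −0.92 ± 1.03 and −0.79 ± 1.06 (SE; edgeR adjusted p 0.758 to 0.931), so the direction of all 4 genes differed between these fits. None of the 8 PAL genes was called without either library. Glyma.13G145000 spanned 40.3 to 107 CPM in NT and 46.9 to 164 CPM in T libraries, and the log2 fold change was −0.02 ± 0.34 (SE; edgeR adjusted p 0.982).

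In NRPD1-RNAi leaves 6 PAL genes passed the filter on low counts and none passed the test (edgeR, 1 of 6 at an unadjusted p under 0.05; 0 by DESeq2), and the test called 0.0164% of 30539 genes, of which 7.82% had an unadjusted p under 0.05. Glyma.19G182300 stood at 8.31, 7.93 and 8.63 CPM in NT replicates 1 to 3 and at 10.7, 10.3 and 28.5 CPM in T replicates 1 to 3. The groups did not overlap, as for 7.67% of all tested genes in that direction. The log2 fold change was 1.05 ± 0.44 (SE), with an unadjusted p of 0.0491 and an adjusted p of 0.636 by edgeR's quasi-likelihood test. It was 0.34 without T replicate 3.

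NRPD1-RNAi T replicate 3 stood apart for the other members as well. Glyma.03G181600 was at 2.53, 2.45 and 2.64 CPM in NT replicates and at 1.32, 0.793 and 5.74 CPM in T replicates. The T libraries thus lay on both sides of the NT range, and the log2 fold change was 0.14 ± 0.72 with all libraries and −1.26 ± 0.40 without T replicate 3 (SE; edgeR adjusted p 0.985 and 0.318). Glyma.03G181700 was at 0.304, 0.233 and 0.305 CPM in NT and at 0.220, 0 and 3.75 CPM in T replicates. Glyma.02G309300 was at 0.405, 0.117 and 0 CPM in NT and at 0, 0.113 and 2.60 CPM in T replicates. Both genes failed the filter here and were not tested.

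The more abundant PAL genes of the Jack family overlapped between T and NT. Glyma.10G058200 stood at 148, 127 and 137 CPM in NT and at 118, 104 and 171 CPM in T replicates, with a log2 fold change of −0.02 ± 0.26 (SE). Glyma.13G145000 stood at 76.7, 70.8 and 55.8 CPM in NT and at 64.8, 71.4 and 112 CPM in T replicates, with a log2 fold change of 0.33 ± 0.28 (SE). Glyma.20G180800 and Glyma.10G209800 were lowest where the other 6 genes were highest. Glyma.20G180800 stood at 32.0, 26.9 and 36.9 CPM in NT and at 29.9, 38.5 and 18.98 CPM in T replicates. Glyma.10G209800 stood at 6.79, 5.01 and 9.24 CPM in NT and at 6.39, 12.2 and 1.84 CPM in T replicates. Their log2 fold changes were −0.11 ± 0.27 and −0.04 ± 0.60 (SE).

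Whether the construct effect differed between families was tested directly in a model of all 6 groups. Between NRPE1-RNAi and NRP(D/E)2-RNAi, 0 of 8 PAL genes were called by edgeR or by DESeq2, 1 of 8 had an unadjusted edgeR p under 0.05, and 0.169% of 36186 tested genes were called, 9.74% having an unadjusted p under 0.05. That gene was Glyma.10G209800, whose effect was higher in NRPE1-RNAi by 2.35 ± 1.02 on the log2 scale (SE; p 0.0292, edgeR adjusted p 0.442). It had failed the filter on low counts within NRP(D/E)2-RNAi and passed the joint filter through the other families. Its NRP(D/E)2-RNAi libraries held 0 to 9 counts, so the effect subtracted here compares counts near 0. For Glyma.19G182300, Glyma.03G181600 and Glyma.03G181700 the differences were −1.69 ± 1.02, −2.14 ± 1.21 and −2.38 ± 1.32 (SE), with edgeR adjusted p-values of 0.608, 0.579 and 0.573. Without NRPE1-RNAi NT replicate 4 these differences were −0.20, −0.29 and −0.30, and without NRPE1-RNAi T replicate 6 they were −2.16, −2.67 and −3.14 (unadjusted p 0.0452, 0.0393 and 0.0266; edgeR adjusted p 0.421, 0.403 and 0.364). Between NRPD1-RNAi and the mean of both Mustang families, 0 of 8 genes were called by edgeR or by DESeq2, 0 of 8 had an unadjusted edgeR p under 0.05, and 0.401% of all genes were called, 7.93% having an unadjusted p under 0.05. The lowest p there belonged to Glyma.20G180800, with a difference of −1.46 ± 0.75 (SE; edgeR adjusted p 0.660). The 95% intervals of these differences were wide, from −5.09 to 0.33 for Glyma.03G181700 between the Mustang families, so a lack of calls does not show that the effects were alike.

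The make-up of the PAL reads was compared as the share of each gene in the counts of all 8. In NRP(D/E)2-RNAi, Glyma.19G182300 took 5.74% ± 3.41 of the PAL counts in NT and 15.4% ± 3.16 in T leaves (SD, n = 6), and 5 of 6 T libraries lay above every NT library. A two-sided exact permutation test gave p = 0.00433, and the Benjamini-Hochberg value over the 24 tests of 8 genes in 3 families was 0.0519. Glyma.02G309300 took 2.498% ± 1.93 in NT and 5.86% ± 0.898 in T leaves (SD, n = 6), with the same exact p of 0.00433 and the same adjusted value of 0.0519. Glyma.03G181700 took 1.69% ± 1.16 and 4.94% ± 2.53 (SD, n = 6; exact p 0.00866, adjusted 0.0693). The share of Glyma.10G058200 was 35.3% ± 4.84 in NT and 26.2% ± 4.02 in T leaves (SD, n = 6; exact p 0.0152, adjusted 0.0909). No share passed 0.05 after adjustment, and shares within a library sum to a whole, so they are not independent of one another.

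In NRPE1-RNAi, Glyma.10G058200 took 49.4% ± 13.1 of the PAL counts in NT and 33.3% ± 5.28 in T leaves (SD, n = 6; exact p 0.0346, adjusted 0.104). Glyma.19G182300 took 8.83% ± 7.98 in NT and 17.0% ± 5.36 in T leaves (SD, n = 6; exact p 0.0649, adjusted 0.165). NT replicate 4, with 24.8%, was the highest library for that share, and without it the T leaves lay 11.4 percentage points above the NT leaves (exact p 0.00433, unadjusted, a comparison added after the data were seen). That library was singled out by the same share, so this p does not stand as a test. Without T replicate 6 the difference was 8.47 percentage points (exact p 0.0909). Over the 12 comparisons that left out 1 library, the exact p ran from 0.00433 to 0.126. In NRPD1-RNAi the share of Glyma.19G182300 was 3.26% ± 0.214 in NT and 5.74% ± 2.19 in T leaves, and that of Glyma.10G058200 was 53.7% ± 0.937 and 48.2% ± 3.89 (SD, n = 3). Neither overlapped between the groups, and each exact test gave p = 0.1, the smallest that 3 against 3 allows.

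**Figure D3:**
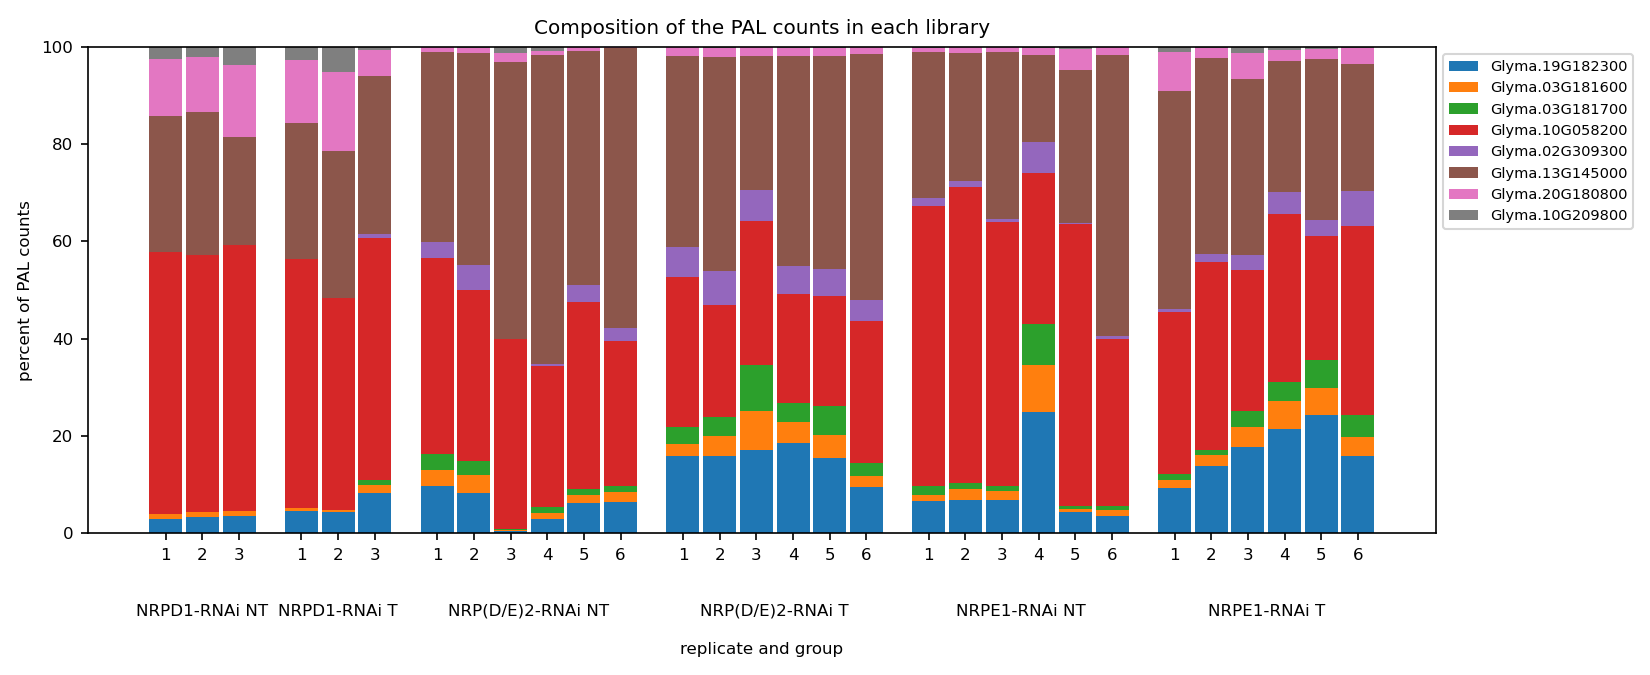
Percent of the counts of all 8 PAL genes that each gene took (vertical axis), stacked for each library by replicate and group (horizontal axis). Glyma.10G058200 and Glyma.13G145000 filled the larger part of each bar except NRPE1-RNAi NT replicate 4, where they took 31.1% and 17.98%, and the part of Glyma.19G182300 averaged 5.74% in NRP(D/E)2-RNAi NT and 15.4% in NRP(D/E)2-RNAi T leaves.

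Between the NT leaves of the Mustang families, 6 of 8 PAL genes were higher in NRPE1-RNAi than in NRP(D/E)2-RNAi, although neither group carried a construct. In this comparison 39.9% of 36186 tested genes were called and 20.4% were called higher. Glyma.20G180800 was higher by 2.24 ± 0.53 and Glyma.10G058200 by 1.91 ± 0.47 on the log2 scale (SE; edgeR adjusted p 0.00145 and 0.00180). For these 2 of 8 genes the NT ranges did not overlap, as for 8.52% of all tested genes in that direction, at 1.62 to 8.72 against 0.149 to 1.34 CPM for Glyma.20G180800 and 56.3 to 216 against 18.3 to 53.8 CPM for Glyma.10G058200. The differences of Glyma.19G182300, Glyma.03G181600, Glyma.03G181700 and Glyma.13G145000 were 2.49, 2.57, 2.45 and 0.76, with edgeR adjusted p-values of 0.0103, 0.0240, 0.0471 and 0.0384. These 4 calls were lost without NRPE1-RNAi NT replicate 4. That on Glyma.03G181700 was also lost without NRP(D/E)2-RNAi NT replicate 3, 4, 5 or 6 (adjusted p 0.0783 to 0.0898), and that on Glyma.13G145000 without NRP(D/E)2-RNAi NT replicate 3, 4 or 6 or NRPE1-RNAi NT replicate 1, 2 or 6 (adjusted p 0.0503 to 0.0926). Total count scaling also ended both of these calls (edgeR adjusted p 0.0625 for Glyma.03G181700 and 0.139 for Glyma.13G145000), and fitting without the filter on low counts ended that on Glyma.03G181700 (adjusted p 0.0563). Without NRPE1-RNAi NT replicate 4, Glyma.20G180800 and Glyma.10G058200 were still called, at 1.87 and 1.77 (edgeR adjusted p 0.00633 and 0.00427). The labels give no growth or sequencing batch, so the family cannot be told apart from a batch that followed it.

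Between NT leaves of the Jack family and the mean of both Mustang NT groups, 2 PAL genes were higher in Jack and 2 lower, where 28.5% of all tested genes were called higher and 26.2% lower, 54.7% in all. Glyma.20G180800 was higher in Jack by 4.10 ± 0.46 and Glyma.10G209800 by 4.60 ± 0.59 on the log2 scale (SE; edgeR adjusted p 5.35e-08 and 3.71e-07), and both calls held in each of the 15 fits that left out 1 NT library. The lowest Jack NT library held 26.9 CPM of Glyma.20G180800 and 5.01 CPM of Glyma.10G209800, above all 12 Mustang NT libraries, which reached at most 8.72 and 0.683 CPM; 15.2% of all tested genes were likewise higher in every Jack NT library. Glyma.03G181700 was lower in Jack by a log2 difference of −3.91 ± 1.62 and Glyma.02G309300 by −4.68 ± 1.85 (SE; edgeR adjusted p 0.0433 and 0.0340). Both had failed the filter on low counts within the Jack family and passed the joint filter through Mustang libraries. Their Jack NT libraries held 0 to 4 counts, so the sizes of these differences rest on Jack counts near 0. Both of these calls were lost without any 1 of the 3 Jack NT libraries and without NRPE1-RNAi NT replicate 4, and that on Glyma.03G181700 also without NRP(D/E)2-RNAi NT replicate 1 or 2. Glyma.10G058200 was higher in Jack by 1.09 ± 0.47 without passing the test (SE; edgeR adjusted p 0.0507) and was called in 5 of the 15 fits without 1 library. Scaling by total counts instead of TMM moved the median of all genes by −0.51 in this comparison and by −0.17 in the comparison of the Mustang controls. In both, TMM factors moved with the group, from 0.658 to 0.790 in Jack NT, 1.06 to 1.15 in NRP(D/E)2-RNAi NT and 0.931 to 1.06 in NRPE1-RNAi NT libraries, and their part in the differences was not tested beyond that change of scaling.

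Log2 CPM were correlated over the 30 libraries after the mean of each group was subtracted, a description over libraries that share the group, its scaling and any common state of the leaf. Glyma.19G182300, Glyma.03G181600, Glyma.03G181700 and Glyma.02G309300 varied most closely together, with Pearson's r between 0.91 and 0.96 over their 6 pairs and Spearman's rho between 0.87 and 0.94. This grouping was made after the values were seen. With NRPE1-RNAi NT replicate 4 left out and Mustang libraries alone (n = 23), r was between 0.90 and 0.95. Correlations of these 4 genes with Glyma.10G058200 and Glyma.13G145000 were between 0.71 and 0.78, and the abundant pair had r = 0.82. Glyma.20G180800 had r between 0.53 and 0.62 with the abundant pair, between 0.32 and 0.40 with the group of 4 and 0.44 with Glyma.10G209800. Glyma.10G209800 had r between −0.18 and −0.05 with the group of 4. Its low counts limit any such value.

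**Figure D4:**
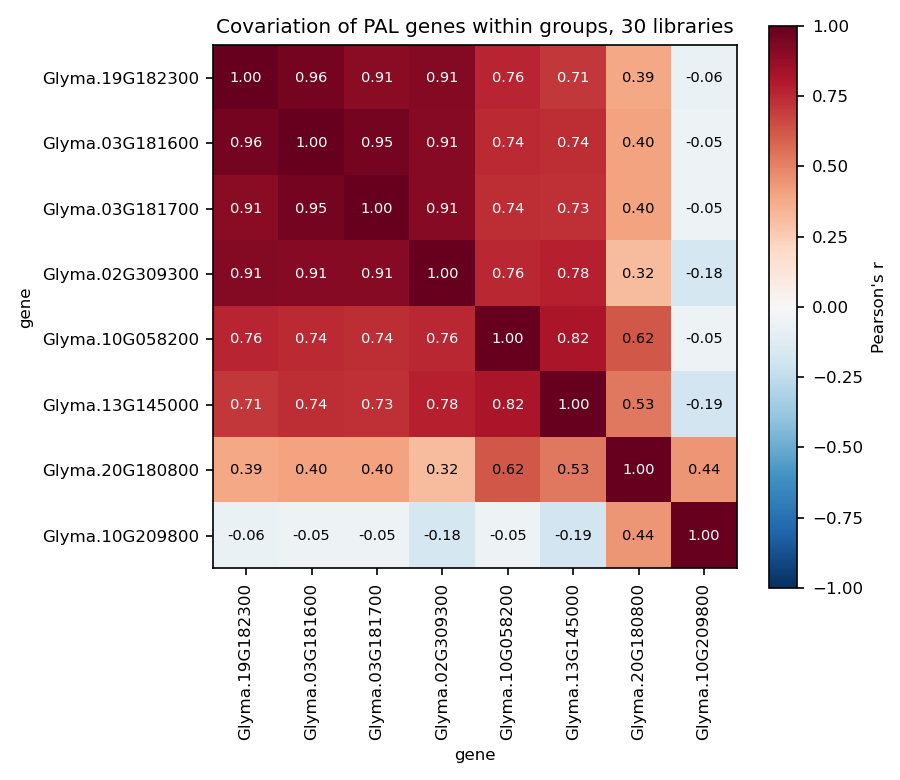
Pearson's r between PAL genes (both axes) of log2 CPM after subtraction of the group mean, over 30 libraries; the colour scale runs from −1 to 1. The upper left block of Glyma.19G182300, Glyma.03G181600, Glyma.03G181700 and Glyma.02G309300 holds values of 0.91 to 0.96, and the row of Glyma.10G209800 lies near 0 except for 0.44 with Glyma.20G180800.

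The spread of PAL genes between plants of the same group was wide beside that of other genes. Of 31273 genes with a mean of at least 1 CPM, the median SD of log2 CPM was 0.34 in NRP(D/E)2-RNAi NT leaves and 0.32 in NRPE1-RNAi T leaves, and the median SD of the 8 PAL genes was 1.27 and 1.08 there. In NRPD1-RNAi NT leaves the order was the other way, with 0.19 for the PAL genes and 0.29 for all genes. The number of PAL genes above the 90th percentile of SD was 6 of 8 in both NRP(D/E)2-RNAi groups, 7 of 8 in NRPE1-RNAi T, 4 of 8 in NRPE1-RNAi NT and NRPD1-RNAi T, and 1 of 8 in NRPD1-RNAi NT leaves. The other genes were not matched for level, and low counts can widen this SD. Glyma.10G209800, with 0 to 9 counts in NRP(D/E)2-RNAi NT libraries, was at percentile 93.9 there. The abundant Glyma.13G145000 reached at most percentile 82 in any group, whereas Glyma.10G058200 reached 94.6 and Glyma.19G182300 reached 99.3. The part of counting noise was not tested. The same libraries were extreme for most members. NRP(D/E)2-RNAi T replicate 3, NRPE1-RNAi NT replicate 4 and NRPE1-RNAi T replicate 6 each held the highest level of their group for 7 of 8 genes, NRPD1-RNAi T replicate 3 for 6 of 8, and NRP(D/E)2-RNAi NT replicate 3 held the lowest for 6 of 8.

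These libraries also stood apart over the other genes. The first principal component of log2 CPM, computed in each family without the PAL genes, took 53.5% of the variance in NRPD1-RNAi, 47.9% in the NRP(D/E)2-RNAi family and 40.1% in the NRPE1-RNAi family. The sign of a component is arbitrary and was set in each family so that the scores correlated positively with the summed PAL level. In each family the library with the highest summed PAL level was also at the high end of that component, at 142 for NRPD1-RNAi T replicate 3, 114 for NRP(D/E)2-RNAi T replicate 3 and 114 for NRPE1-RNAi T replicate 6. NRPE1-RNAi NT replicate 4 followed at 103, and NRP(D/E)2-RNAi NT replicate 3, with the lowest summed PAL level of its family, was at the low end at −143. In NRP(D/E)2-RNAi the component also separated T from NT libraries, at 27.8 or more against −20.8 or less. Between these ends the order was looser. NRPE1-RNAi NT replicate 2, at −5.27, had 354 CPM of summed PAL, whereas NRPE1-RNAi T replicate 3, at 13.1, had 129 CPM. The library with the highest PAL sum of each family thus lay at an end of a component computed without the PAL genes, and the part of that component in the PAL differences was not tested.

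**Figure D5:**
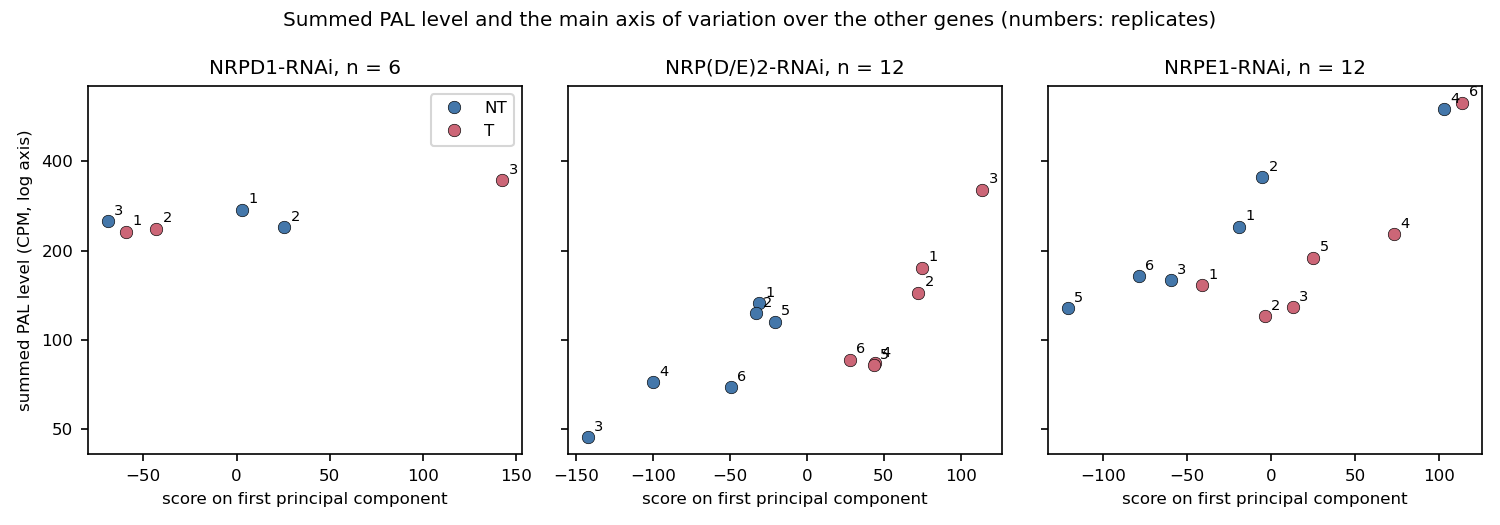
Summed level of the 8 PAL genes (vertical axis, CPM, log axis) against the score of each library on the first principal component of all other genes (horizontal axis, no unit), in the 3 families. Blue points are NT and red points T libraries, numbered by replicate, and the sign of each component was set so that scores correlated positively with the sum. The libraries with the highest sums, 345, 321 and 628 CPM, lie at the right end of their panels.

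Among 23309 other genes with a mean of at least 5 CPM, some followed the PAL genes as closely as these followed one another. With Glyma.19G182300, Glyma.03G181600, Glyma.03G181700 and Glyma.02G309300, 601, 602, 557 and 821 of them had r over 0.8. Close covariation with these members was thus not particular to the PAL family. For Glyma.10G058200, Glyma.13G145000 and Glyma.20G180800 the numbers were 53, 33 and 1. The closest to Glyma.03G181700 was Glyma.11G070500, with r = 0.97 and rho = 0.96 over the 30 libraries after subtraction of group means, and the closest to Glyma.02G309300 was Glyma.13G330800, with r = 0.97 and rho = 0.98. The highest r for Glyma.10G058200, Glyma.13G145000 and Glyma.20G180800 with any such gene was 0.88, 0.88 and 0.81. As the highest of many values over the same libraries, these are descriptions of likeness alone.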

How the data were processed

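Per the labels' protocols, RNA of mature leaves was extracted with TRI Reagent, and NEBNext poly(A) libraries were read on a HiSeq sequencer. The authors deposited 1 table per library with a raw read count for each of 55589 gene identifiers, not normalised and without a header. The submitters' processing notes name FastQC 0.11.5, STAR 2.5.3a and edgeR without roles. The genome build, annotation, counting program and strand setting are not given in the sources used here, so reads of overlapping, antisense or near-identical genes may be counted for either.

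The 8 members, the gene lists and the tests were chosen with earlier results of these data known. All 8 members were reported in every comparison. Lists of other pathway genes, leaf markers and targets needed names. None of the identifiers matched the RefSeq table of 59048 genes (matched: 0), so these lists were not analysed here, and at most 2 identifiers outside the family were named, by the highest correlation with a member.

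T and NT plants were compared within each family in R 4.3.3 with edgeR 4.0.16 (filterByExpr, TMM, quasi-likelihood test, no replicate block), and differences between families in a joint model of 6 groups over 30 libraries. P-values were adjusted by Benjamini-Hochberg over all tested genes and called under 0.05. Log2 CPM used a prior count of 2. Standard errors were derived from the F statistic. Shares of PAL counts were compared by exact permutation tests (scipy 1.17.1). Alternatives were DESeq2 1.42.0, other scalings, no filter, the joint model, a replicate block and leaving out each library. The edgeR script was tested on simulated data. No replicate pair agreed within sampling noise (lowest chi-square per degree of freedom 6.57), so no library was counted as a duplicate.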

Additional observations from a re-analysis of the deposited data

Results flagged for a closer look

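Of 36 sets of CPM values examined (8 genes and their sum in the 4 groups of 6 plants), 11 held a library whose gap to the nearest other exceeded Dixon's 95% critical value. Normally distributed values exceed it in about 1 in 20 sets. CPM were taken here without a log transformation and were skewed upwards, so that rate does not apply and no excess over chance is claimed. The genes are also correlated, so these flags are not 11 separate events. They fell in 3 libraries. In NRPE1-RNAi NT replicate 4, Glyma.19G182300 stood at 148 CPM, Glyma.03G181600 at 58.6, Glyma.03G181700 at 49.5 and Glyma.02G309300 at 38.1 CPM, and the nearest other control held 23.9, 8.63, 4.35 and 4.01 CPM. In NRPE1-RNAi T replicate 6, Glyma.03G181700 stood at 28.2 CPM, Glyma.10G058200 at 245, Glyma.02G309300 at 44.8 and Glyma.13G145000 at 164 CPM, and the summed PAL level was 628 CPM, where the nearest other T library held 10.9, 78.4, 10.4, 68.4 and 227 CPM. In NRP(D/E)2-RNAi T replicate 3, Glyma.03G181600 stood at 25.4 and Glyma.03G181700 at 30.6 CPM, and the nearest other T library held 5.82 and 5.95 CPM. The highest plants of the NRPE1-RNAi family thus included 1 control and 1 transgenic plant. The cause of the high values was not tested.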

How the results depend on the processing

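In NRP(D/E)2-RNAi, total count scaling called 2 PAL genes, DESeq2 called 3 and fits without 1 library called 0 to 3, beside 1 as reported. The fits without 1 library called 2921 to 5521 genes in all, beside 5037 as reported (15.9% of those tested). PAL calls between Mustang controls ranged from 2 to 6 and between Jack and Mustang controls from 2 to 5 when 1 library was left out. Those fits called 13101 to 14748 and 16041 to 19993 genes in all. As reported, 39.9% and 54.7% of all tested genes were called in these comparisons. Over all genes, DESeq2 called 531 in NRPD1-RNAi (edgeR 5), 8058 in NRP(D/E)2-RNAi (edgeR 5037) and 1976 in NRPE1-RNAi (edgeR 618); in NRPD1-RNAi total count scaling called 1 and no filter 10. The joint model called 208 in NRPD1-RNAi and 1415 in NRPE1-RNAi. DESeq2 called 297 genes against 61 by edgeR between the Mustang effects, and 384 against 145 between the NRPD1-RNAi effect and the mean Mustang effect.

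Same-numbered T and NT replicates did not vary together (correlations NRPD1-RNAi −0.50 to −0.30, NRP(D/E)2-RNAi −0.36 to 0.26, NRPE1-RNAi −0.40 to 0.46), so the numbers were not taken as pairs. A replicate block left 1 PAL call in NRP(D/E)2-RNAi and 0 in the others, with 0, 2198 and 293 calls over all genes in NRPD1-RNAi, NRP(D/E)2-RNAi and NRPE1-RNAi. With the replicate block the log2 fold change of Glyma.03G181600 was −0.38 in NRPD1-RNAi and 0.58 in NRPE1-RNAi, and that of Glyma.03G181700 was 0.56 in NRPE1-RNAi.

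Under total count scaling, 4 values that had not passed the test changed sign: Glyma.10G058200 in NRPD1-RNAi (0.076), Glyma.13G145000 in NRPE1-RNAi (0.030) and between Jack and Mustang controls (−0.32 from 0.21, where the median of all genes moved by −0.51), and Glyma.19G182300 between the NRPD1-RNAi effect and the mean Mustang effect (0.044). Leaving out 1 library gave log2 ranges that crossed 0. In NRPD1-RNAi they were −1.26 to 0.52 for Glyma.03G181600, −0.31 to 0.10 for Glyma.10G058200, −0.38 to 0.094 for Glyma.20G180800 and −0.79 to 0.40 for Glyma.10G209800. In NRP(D/E)2-RNAi the range of Glyma.10G058200 was −0.14 to 0.51. In NRPE1-RNAi they were −0.25 to 1.73 for Glyma.19G182300, −0.87 to 1.53 for Glyma.03G181600, −0.92 to 1.93 for Glyma.03G181700, −0.79 to 2.46 for Glyma.02G309300 and −0.42 to 0.082 for Glyma.13G145000. Between Mustang effects Glyma.02G309300 ranged from −2.47 to 0.77. Between the NRPD1-RNAi effect and the mean Mustang effect the ranges were −0.82 to 0.17 for Glyma.19G182300, −2.32 to 1.81 for Glyma.03G181700, −0.17 to 0.43 for Glyma.10G058200, −2.62 to 2.92 for Glyma.02G309300 and −0.13 to 0.35 for Glyma.13G145000. Between Mustang controls they were −0.44 to 1.93 for Glyma.02G309300 and −0.11 to 0.72 for Glyma.10G209800. Differences in share crossed 0 in NRPD1-RNAi for Glyma.03G181600 (−0.546 to 0.120 percentage points), Glyma.03G181700 (−0.0622 to 0.482), Glyma.02G309300 (−0.0415 to 0.336), Glyma.20G180800 (−3.32 to 2.05) and Glyma.10G209800 (−1.10 to 1.21), and in NRPE1-RNAi for Glyma.13G145000 (−1.40 to 6.56).

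Of 254 values of single genes under other settings, 240 kept their direction and their side of the threshold, as did 784 of 864 with a library left out. Most of these values had not passed the test as reported, so these numbers say little about the calls. With a library left out, 40 values changed sign, 31 lost a call and 9 gained one. The call on Glyma.20G180800 in NRP(D/E)2-RNAi was lost in 7 of 12 such fits. Glyma.10G209800, with 571 counts over 30 libraries, was the most limited by depth. The causes of these changes were not tested.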
